A study of Mus musculus with 16 samples.

Results

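The comparison described here sets hearts that lack the adenosine 2A receptor (A2AR) against wild-type hearts when neither had been exposed to endotoxin. It rests on 8 arrays of 16: 4 from A2AR knockout mice and 4 from wild-type littermates, all given saline. The arrays were taken by the genotype and treatment in the labels. All mice were males aged 14 weeks on the CD1 background, bred from a sub-colony of the original A2AR knockout line, and the labels name no tissue restriction of the deletion. Saline was injected intraperitoneally as the vehicle for lipopolysaccharide (LPS, bacterial endotoxin, 20 mg/kg), and RNA of the ventricular myocardium was taken at 24 h. The other 8 arrays, 4 of knockout and 4 of wild-type mice given LPS, are used below only to set the same genes beside another genotype comparison that shares no array with this one. The labels do not say in so many words that each array is a separate animal, so p values measure the spread between arrays. The transcript of the targeted receptor was not analysed here, and the genotype of each array rests on its label.

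A2AR is a cell surface receptor for extracellular adenosine that couples to the stimulatory G protein and raises cyclic AMP (cAMP). In the heart it is known for widening coronary vessels, and on immune cells for restraining inflammatory responses. Adenosine itself is formed from ATP released by cells and is removed by uptake, deamination or phosphorylation.

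Values are log2 probe set levels, on which a difference of 1 means a fold of 2, and 18193 genes were tested. Most of them differed little between knockout and wild-type saline hearts. The median size of the log2 change over genes was 0.07, and 99% of genes changed by less than 0.47. The arrays correlated at 0.993 to 0.997, and the first principal component (25.9% of the variance) did not part the genotypes. The second (22.9%) did, with scores of 12.97, 3.00, 0.07 and 18.33 in wild-type arrays 1 to 4 and -14.92 to -3.57 in the knockout arrays. The highest scores were those of wild-type arrays 1 and 4, which also stood apart for transcripts of other tissues, described below. The cardiomyocyte markers averaged 13.38 to 13.47 in every saline array, and Myh6, the main myosin heavy chain of the adult mouse heart, stood at 14.35 or above in each. These genes mark heart muscle and do not tell ventricle from atrium. Atrial genes were high in every saline array too, Myl7, an atrial myosin light chain, at 12.83 to 13.44 and Sln, sarcolipin, at 11.93 to 12.63, so the label of ventricle alone was not borne out by them. The 19 contractile apparatus genes, 27 oxidative phosphorylation genes and 17 tricarboxylic acid cycle genes measured held 0 genes called and 0 with an unadjusted limma p under 0.05, against 7.15% of all genes.

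Wild-type saline arrays 1 and 4 stood apart for transcripts of other tissues. Myh1, a fast skeletal muscle myosin, was at 9.0 in wild-type array 1 and 11.37 in array 4, against 2.73 and 2.90 in the other wild-type arrays and 2.82 to 2.90 in the knockout arrays. The 15 fast skeletal muscle markers averaged 6.62 and 8.03 in these arrays and 5.08 to 5.24 in the other 6. The same arrays carried airway transcripts: Scgb1a1, the secretoglobin of airway club cells, was at 8.95 in array 1 and 5.42 in array 4 against 3.06 to 3.73 elsewhere, and Bpifa1, another secreted airway protein, at 8.25 and 4.46 against 2.86 to 3.55. The surfactant gene Sftpc of the lung alveoli was at 4.19 and 4.13 in arrays 1 and 4, below the median of all probe sets (4.64). Among the LPS arrays, knockout array 2 and wild-type array 1 also carried airway transcripts, with Scgb1a1 at 10.50 and 5.81 against 2.99 to 3.39 in the other 6 and Bpifa1 at 9.19 and 4.88 against 2.76 to 3.23. Saline array 1 of the wild type was also lowest for atrial markers, whose mean was 10.53 against 11.10 to 11.27 in the other saline arrays. Wild-type arrays 3 and 4 in turn stood apart from arrays 1 and 2 for genes of the circadian clock, described below. Values without these arrays are given beside the results that they moved most among those checked.

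**Figure D1:**
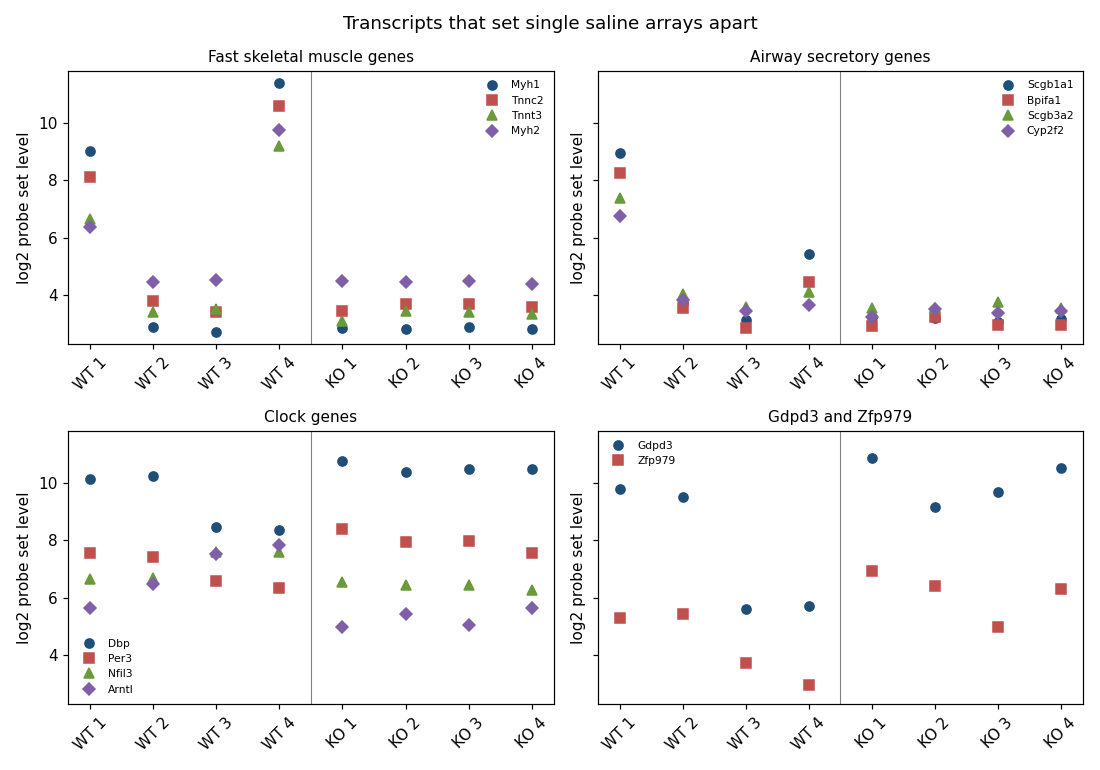
Log2 probe set levels of chosen genes in each of the 8 saline arrays (WT 1 to 4, KO 1 to 4; the replicates have no order and each point is 1 array). Fast skeletal muscle genes are high in wild-type arrays 1 and 4, where Myh1 reaches 9.0 and 11.37, airway genes in array 1, and the clock genes, Gdpd3 and Zfp979 part wild-type arrays 3 and 4 from arrays 1 and 2.

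Of the 18193 genes, 14 (0.0770%) were called at an adjusted p under 0.05 by limma, 6 higher in knockout hearts (0.0330% of all genes) and 8 lower (0.0440%). The lower genes include Hp, Cidec and Pon1, which are known from fat, liver and plasma lipid transport, and Pde3b, a phosphodiesterase that degrades cAMP. The higher genes include Mtr, methionine synthase, and Chac1, which breaks down glutathione. The fold differences reached 2.76 for Mtr, and the smallest was 1.52 for Zgrf1, whose 8 arrays all lay below the median of all probe sets, where background limits a fold. For each of the 14, the 4 knockout arrays lay wholly on one side of the 4 wild-type arrays, which held for 3.89% of all genes. The 14 were picked by p on these same arrays, so this adds no separate support. It also held for all of the first 30 genes by p.

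Haptoglobin, Hp, a plasma protein that binds free haemoglobin, had the smallest p. Its log2 level was 7.08, 6.64, 6.84 and 7.32 in the wild-type arrays and 5.44, 5.53, 5.70 and 5.58 in the knockout arrays. It fell by 1.41 ± 0.13 (limma standard error; adjusted p = 0.00391), a fold of 2.65, and the lowest wild-type array lay well above the highest knockout array. Cidec, a protein of the lipid droplet surface in fat cells, was at 4.35, 4.53, 4.73 and 4.97 in wild-type and at 3.67, 3.67, 3.71 and 3.40 in knockout arrays. It fell by 1.04 ± 0.13 (adjusted p = 0.00935). Every knockout array and wild-type arrays 1 and 2 lay below the median of all probe sets, where background limits the size of a difference. Pon1, the paraoxonase carried by high-density lipoprotein, was at 5.40, 5.30, 5.41 and 5.58 in wild-type and 4.53, 4.68, 4.74 and 4.76 in knockout arrays and fell by 0.75 ± 0.09 (adjusted p = 0.0110). Hp and Cidec were still called without wild-type arrays 1 and 4, with log2 changes of -1.18 and -1.02. They were the only 2 genes of the 14 that were. That fit holds fewer wild-type arrays, and none of the 14 changed sign in it. Whether the other calls were lost through fewer arrays or through what sets arrays 1 and 4 apart was not tested.

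Mtr, the enzyme that remethylates homocysteine to methionine, had the largest rise among called genes. It was at 6.35, 6.25, 6.04 and 6.24 in wild-type arrays and at 8.24, 7.37, 7.64 and 7.48 in knockout arrays, a rise of 1.47 ± 0.16 (adjusted p = 0.00935). Knockout array 1 was the highest, and the other 3 knockout arrays were still above every wild-type array. Chac1, a glutathione-degrading enzyme that is induced by the integrated stress response, was at 5.38, 5.36, 4.96 and 5.21 in wild-type and 6.08, 6.26, 6.10 and 6.06 in knockout arrays. It rose by 0.90 ± 0.11 (adjusted p = 0.00935). Of the 22 heat shock and unfolded protein response genes measured, Chac1 was the only one called. The heat shock protein gene Hspa1b gave -0.82 ± 0.19 (adjusted p = 0.247) in log2 units, and -0.47 without wild-type arrays 3 and 4, and the median of the list was -0.06 against -0.0042 over all genes.

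Pde3b, the cAMP phosphodiesterase that insulin activates in fat cells, was the called gene closest to the known signalling of A2AR. Its levels were 7.17, 7.23, 7.29 and 7.44 in wild-type and 6.46, 6.66, 6.65 and 6.12 in knockout hearts, and it fell by 0.81 ± 0.12 (adjusted p = 0.0325). Of the 23 adrenergic and cAMP signalling genes measured, it was the 1 gene called. Rapgef3, a cAMP-activated exchange factor, gave -0.67 ± 0.21 (adjusted p = 0.483); wild-type array 3 was the highest at 7.32, with the other wild-type arrays at 6.62 to 6.69 and the knockout arrays at 5.79 to 6.78. The median change over the list was -0.03. Among genes outside it that came close to the threshold, Ptger3, a prostaglandin E2 receptor that lowers cAMP, was at 3.55 to 3.95 in wild-type and 3.05 to 3.22 in knockout arrays (adjusted p = 0.0643), all below the median of all probe sets. The other probe set of Ptger3, with means of 3.09 in wild-type and 3.11 in knockout arrays, changed by 0.02. Rgs2, which dampens G protein signalling, was at 8.57 to 8.98 and 9.22 to 9.45 (adjusted p = 0.176).

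Of 16 genes for adenosine receptors and adenosine handling, 12 were measured and 0 were called. The A1 and A2B receptor genes, Adora1 and Adora2b, were not among the genes measured, so nothing is said of them. Adora3, the A3 adenosine receptor, was at 4.88, 4.89, 4.69 and 5.13 in wild-type and 4.68, 4.85, 4.67 and 4.72 in knockout arrays, and the groups overlapped (-0.16 ± 0.10). The ectonucleotidase gene Entpd2, whose product breaks down ATP outside the cell, gave -0.24 ± 0.08 (adjusted p = 0.545), and the adenosine deaminase gene Ada gave -0.28 ± 0.13 (adjusted p = 0.692). The groups touched for Entpd2 and overlapped for Ada: Entpd2 stood at 7.80 to 7.95 against 7.49 to 7.80, and Ada at 3.74 to 4.11 against 3.34 to 3.97. The median change of the list was -0.13, with 10 of 12 log2 changes below 0, against 9409 of 18193 over all genes. Genes that lie beside the targeted locus were looked at because stretches of the chromosome around a targeted gene can differ between a knockout line and its littermates. Of 35 such genes, 34 of them found in a run of 42 protein-coding genes of the reference table, 33 were measured and 0 were called. Gstt2, a glutathione transferase, had the smallest p among them. It was at 6.46, 6.13, 5.61 and 5.46 in wild-type and 6.84, 6.75, 6.75 and 6.58 in knockout arrays (0.82 ± 0.18, adjusted p = 0.232), and 0.43 without wild-type arrays 3 and 4. The median of these genes was -0.02. Of the 33, 2 were higher and 3 lower at an unadjusted p under 0.05 (limma), where 3.27% and 3.88% of all genes were. In 2 of them the knockout arrays lay wholly above the wild-type arrays, against 1.81% of all genes. In 0 they lay wholly below, against 2.08%.

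The remaining called genes belong to no single list. Ifi27l2a, an interferon-inducible gene, was at 9.22, 9.01, 9.33 and 9.55 in wild-type and 8.53, 8.37, 8.23 and 8.23 in knockout arrays and fell by 0.94 ± 0.11 (adjusted p = 0.00935). Of 25 interferon-stimulated genes measured, none was called: the change of Ifit3, an antiviral RNA-binding protein, was 0.64 ± 0.15 (adjusted p = 0.250) and that of Oasl2 -0.54 ± 0.20 (adjusted p = 0.566). Slc16a9, a transporter of the monocarboxylate family, fell by 0.87 ± 0.11 (adjusted p = 0.0113), from 6.46 to 6.93 in wild-type to 5.68 to 5.96 in knockout arrays. Mpzl2, an adhesion protein, fell by 0.81 ± 0.12 (adjusted p = 0.0274), and Zgrf1, a putative helicase, by 0.60 ± 0.09 (adjusted p = 0.0365). Mpzl2 was at 4.41 to 4.61 in wild-type and 3.42 to 4.01 in knockout arrays, and Zgrf1 at 4.15 to 4.47 and 3.60 to 3.84. All 8 arrays were thus below the median of all probe sets for both genes, and background limits both differences.

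Lnx1, a ubiquitin ligase that binds Numb, was at 9.09, 9.03, 8.80 and 8.99 in wild-type and 9.66, 9.82, 9.52 and 9.62 in knockout arrays and rose by 0.68 ± 0.08 (adjusted p = 0.00935). Pgap2, which matures glycosylphosphatidylinositol anchors, rose by 0.84 ± 0.12 (adjusted p = 0.0232), from 8.47 to 9.14 in wild-type to 9.61 to 9.77 in knockout arrays. Ctsk, the collagen-cleaving protease cathepsin K, rose by 0.88 ± 0.13 (adjusted p = 0.0274), from 4.72 to 5.23 to 5.76 to 6.15. Nav3, a protein associated with microtubules, rose by 0.69 ± 0.10 (adjusted p = 0.0232), from 5.40 to 5.56 to 5.97 to 6.31.

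**Figure D2:**
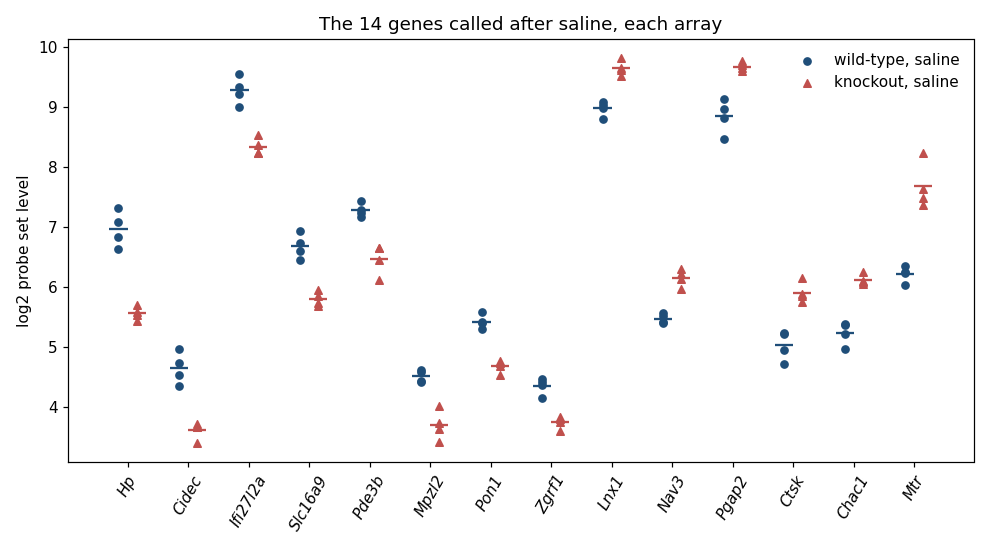
Log2 probe set level of the 14 called genes in the 4 wild-type (circles) and 4 knockout (triangles) saline arrays, ordered by log2 change, with group means as lines. The groups do not overlap for any of the 14, from Hp, with a log2 change of -1.41, to Mtr, with one of 1.47.

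Some of the 14 genes have further probe sets, which were not used to call them. Of the called genes, 6 had 10 other probe sets, and all 10 had a log2 change of the same sign, 6 of them with an unadjusted p under 0.05 (limma). Pgap2 gave 0.53 and 0.59 on its other probe sets, Lnx1 gave 0.55, and Mtr gave 0.47 on a probe set below its main one in level. Slc16a9 gave -0.11 and -0.05, and 1 of 2 other probe sets of Mpzl2 (-0.05) and of Nav3 (0.11) were as small. For these 3 genes the difference is therefore carried by part of their probe sets. When all probe sets of a gene were averaged, the changes were -0.34 for Slc16a9, -0.45 for Mpzl2 and 0.47 for Nav3. The called genes also differed in how far they depend on single arrays. Hp, Mtr, Ifi27l2a, Chac1, Lnx1 and Cidec kept their call when any 1 of the 8 arrays was left out, and Pon1 and Slc16a9 in 7 of 8 cases. Pgap2 and Ctsk kept it in 3, Nav3, Mpzl2 and Pde3b in 2 and Zgrf1 in 1.

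Fat-related transcripts were lower in knockout hearts as a broader group, although Cidec was the only one called. Of 7 adipocyte markers measured, 5 had all knockout arrays below all wild-type arrays, against 2.08% of all genes, and the median log2 change was -0.73. Adipoq, the fat hormone adiponectin, was at 7.89, 7.57, 8.35 and 8.66 in wild-type and 6.39, 7.32, 7.55 and 5.90 in knockout arrays (-1.32 ± 0.33, adjusted p = 0.300). Knockout arrays 1 and 4 were the lowest, and array 3 reached almost to wild-type array 2. Retn, the hormone resistin, was at 6.36, 6.64, 6.82 and 6.94 against 5.73, 5.89, 6.33 and 5.91 (-0.73 ± 0.15, adjusted p = 0.183). Car3, a carbonic anhydrase abundant in fat, was at 10.60, 10.42, 10.75 and 11.21 against 9.39, 10.18, 10.20 and 9.30 (-0.98 ± 0.22, adjusted p = 0.232). The hormone leptin, Lep, was at 3.33 to 3.59 in wild-type and 3.23 to 3.49 in knockout arrays, below the median of all probe sets throughout. In RNA from whole tissue, fewer fat cells and less of these transcripts per fat cell cannot be told apart.

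The array means of the 7 adipocyte markers were 5.89, 5.88, 6.10 and 6.22 in wild-type and 5.23, 5.57, 5.59 and 5.21 in knockout hearts, so the groups did not overlap. Without wild-type arrays 1 and 4, those with skeletal muscle transcripts, the median log2 change of the markers was -0.76. Without wild-type arrays 3 and 4 it was -0.54. The brown fat gene Ucp1, which uncouples respiration, was at 6.50, 5.09, 4.45 and 6.06 in wild-type and 3.66, 5.36, 4.79 and 3.86 in knockout arrays and overlapped; its log2 change was -1.11 ± 0.44 (adjusted p = 0.627) and -0.35 without wild-type arrays 1 and 4.

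Genes of lipid synthesis lay in the same direction. Of 20 measured, 9 had an unadjusted p under 0.05 and were lower, where 3.88% of all genes were, and 1 was higher, where 3.27% were, but 0 were called. The median was -0.22. Fasn, fatty acid synthase, was at 7.92, 8.12, 7.54 and 8.70 in wild-type and 6.75, 6.40, 7.64 and 6.80 in knockout arrays (-1.17 ± 0.26, adjusted p = 0.232), and knockout array 3 overlapped the wild-type range. The desaturase gene Scd1 was at 9.04, 9.20, 8.82 and 9.84 against 8.34, 8.31, 8.90 and 7.86 (-0.87 ± 0.22, adjusted p = 0.322), again with knockout array 3 within the wild-type range. Dgat1, the last enzyme of triglyceride synthesis, did not overlap, at 8.22 to 8.38 against 7.93 to 8.06 (-0.31 ± 0.07, adjusted p = 0.232). Neither did Fads2, a desaturase of polyunsaturated fatty acids, at 5.07 to 5.32 against 4.74 to 4.86 (-0.36 ± 0.09), nor Srebf1, a transcription factor that drives lipid synthesis, at 8.14 to 8.47 against 7.57 to 8.05 (-0.40 ± 0.11, adjusted p = 0.355). Above 0 were 8784 of the 18193 log2 changes over all genes and 4 of these 20 (Gpam, Insig1, Mlxipl and Agpat2). Gpam, the first enzyme of glycerolipid synthesis, was the only one of these with an unadjusted p under 0.05, at 11.34 to 11.46 against 11.52 to 11.79 (0.20 ± 0.06, adjusted p = 0.524). Without wild-type arrays 1 and 4, 7 of the 20 had an unadjusted p under 0.05 and Fasn changed by -0.93. That fit holds fewer arrays, and its share of all genes is not given.

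**Figure D3:**
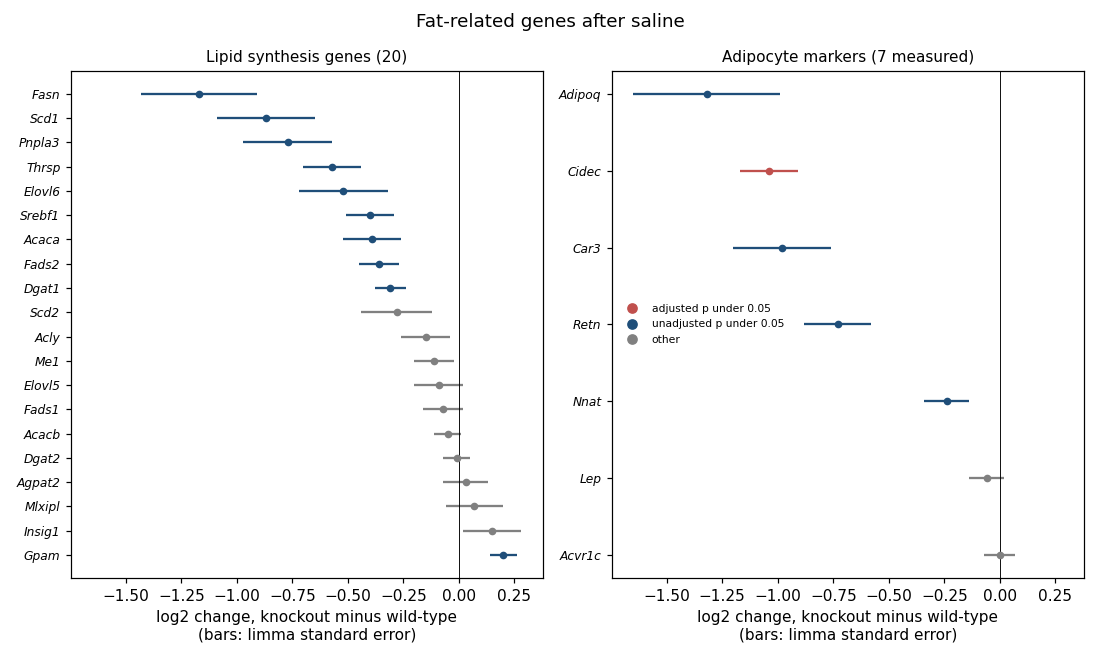
Log2 change of 20 lipid synthesis genes and 7 adipocyte markers after saline, knockout minus wild-type (4 arrays each), with limma standard errors as bars; colours mark adjusted p and unadjusted p under 0.05. Most points lie left of 0, with medians of -0.22 and -0.73, and Cidec is the only gene with an adjusted p under 0.05.

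Most genes that act on fat stored inside cells had log2 changes near 0. Of the 17 lipid droplet and lipolysis genes, 4 were lower at an unadjusted p under 0.05, where 3.88% of all genes were, with Cidec called. Without knockout array 1, 7 had such a p in either direction. G0s2, which inhibits the lipase Pnpla2, was at 9.04 to 9.64 in wild-type and 8.62 to 9.05 in knockout arrays (-0.53 ± 0.13, adjusted p = 0.294, and -0.30 without wild-type arrays 3 and 4), and the droplet protein gene Plin3 at 10.01 to 10.17 and 9.71 to 9.89 (-0.29 ± 0.06, adjusted p = 0.232). Pnpla2 had a change of 0.00 ± 0.07, the lipoprotein lipase gene Lpl one of 0.04 ± 0.04 and the fatty acid binding protein gene Fabp3 one of 0.02 ± 0.05. Among 21 fatty acid oxidation genes none was called. Ppara, a nuclear receptor that drives fatty acid oxidation, did not overlap (-0.27 ± 0.07, adjusted p = 0.350), nor did its coactivator gene Ppargc1a (-0.34 ± 0.10, adjusted p = 0.416).

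Next to the called genes by p was Cdo1, cysteine dioxygenase, which turns cysteine towards taurine and sulfate. It was at 7.24, 7.08, 6.79 and 7.27 in wild-type and 5.97, 6.04, 6.42 and 5.41 in knockout arrays, without overlap (-1.13 ± 0.18, adjusted p = 0.0557). Acta1, skeletal muscle alpha-actin, which adult ventricle also expresses, was at 13.00, 13.07, 12.26 and 13.08 against 12.04, 11.91, 11.75 and 11.41 (-1.08 ± 0.17, adjusted p = 0.0575). Wild-type array 2, without raised Myh1, was as high for Acta1 as arrays 1 and 4, and the change without arrays 1 and 4 was -0.89. Slc38a1, a glutamine transporter, was at 6.73, 6.70, 6.65 and 6.80 against 7.31, 7.06, 7.30 and 7.42 (0.55 ± 0.09, adjusted p = 0.0630). Ppbp, a chemokine of platelets, was at 3.95 to 4.81 against 5.09 to 5.75 (1.06 ± 0.18, adjusted p = 0.0766), while the median of the 6 platelet markers was 0.10. Hk1, a hexokinase, was at 10.40 to 10.50 against 9.95 to 10.16 (-0.36 ± 0.06, adjusted p = 0.0766). Aifm2, which protects membranes from lipid peroxidation, was at 7.72 to 7.79 against 7.29 to 7.41 (-0.40 ± 0.07, adjusted p = 0.0766), but the mean of its probe sets changed by 0.04. The other 10 genes among the first 30 by p (Ptger3, Tslp, Dixdc1, Smco4, Tubb2a, Ppa1, Fmod, Pkdcc, Rgs2 and Slc26a10) had adjusted p from 0.0643 to 0.180.

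The clock genes showed the widest pattern below the threshold, and it rested largely on wild-type arrays 3 and 4. The mammalian clock is a loop in which ARNTL (BMAL1) and CLOCK bind E-boxes and drive the Per, Cry and Nr1d genes, whose products shut them down again. DBP, TEF and HLF activate D-boxes that NFIL3 represses, and REV-ERB and ROR proteins compete at a further one, called the ROR element here. The labels give the time after injection and no time of day. Of the 26 measured clock genes, 21 had a RefSeq promoter window (250 bases before to 50 after a start, GRCm38.p6), 29 windows in all. The E-box was searched as CACGTG, the D-box as TTATGTAA or TTACGTAA and the ROR element as TAGGTCA, each on both strands, and no match of one kind overlapped a match of another in the windows shown. An E-box was found in 7 of the 29 windows, a D-box in 1 and a ROR element in 2, where 7.15%, 1.06% and 2.61% of all 32851 windows hold them. The 6 genes with an E-box had log2 changes of 0.87 (Ciart), 0.82 (Per1), 0.63 (Tef), 0.26 (Klf15), -0.01 (Cry1) and -0.05 (Bhlhe41). The 3 promoters below, the 250 bases before the start, were chosen because they hold 1 of each kind beside a gene whose values are given next. Capitals mark the motif. Ciart (chr3:95882229-95882478, minus strand) has 3 E-boxes, starting at -116, -58 and -44 relative to the start. Per3 (chr4:151044666-151044915, minus strand) has 2 D-boxes, at -205 and -158. Nfil3 (chr13:52981040-52981289, minus strand) has 1 ROR element, read on the opposite strand, at -12.
Ciart: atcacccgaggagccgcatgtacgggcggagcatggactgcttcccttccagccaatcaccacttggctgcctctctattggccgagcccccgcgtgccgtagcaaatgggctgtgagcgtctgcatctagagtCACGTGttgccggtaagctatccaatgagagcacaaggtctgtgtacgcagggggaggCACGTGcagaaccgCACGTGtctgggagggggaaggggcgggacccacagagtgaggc
Per3: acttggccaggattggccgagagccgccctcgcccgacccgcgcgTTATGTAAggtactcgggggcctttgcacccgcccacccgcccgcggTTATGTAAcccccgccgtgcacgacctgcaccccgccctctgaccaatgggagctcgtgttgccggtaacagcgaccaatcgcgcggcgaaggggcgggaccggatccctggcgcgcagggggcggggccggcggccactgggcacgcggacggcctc
Nfil3: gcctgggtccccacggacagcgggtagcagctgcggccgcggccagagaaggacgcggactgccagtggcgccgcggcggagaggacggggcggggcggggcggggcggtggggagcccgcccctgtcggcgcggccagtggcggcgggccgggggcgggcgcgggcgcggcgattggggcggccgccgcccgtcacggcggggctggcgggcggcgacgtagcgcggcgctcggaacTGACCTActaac

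Ciart, a repressor of the ARNTL and CLOCK pair, was at 7.18, 7.10, 5.61 and 5.50 in the wild-type arrays and 7.60, 6.95, 7.37 and 6.94 in the knockout arrays (0.87 ± 0.35, adjusted p = 0.633). Wild-type arrays 3 and 4 were low and arrays 1 and 2 lay within the knockout range. Per3, a period gene, was at 7.55, 7.42, 6.59 and 6.33 against 8.38, 7.93, 7.97 and 7.55 (0.99 ± 0.25, adjusted p = 0.322), with the same 2 arrays lowest. Nfil3 was at 6.67, 6.68, 7.61 and 7.60 against 6.56, 6.44, 6.44 and 6.27 (-0.71 ± 0.21, adjusted p = 0.416); here wild-type arrays 3 and 4 were high and the groups did not overlap. Among the 26 clock genes, 5 were higher and 1 lower without overlap, against 1.81% and 2.08% of all genes. Dbp was at 10.13, 10.23, 8.48 and 8.36 against 10.76, 10.36, 10.48 and 10.49 (1.22 ± 0.37, adjusted p = 0.452). Arntl was at 5.63, 6.47, 7.53 and 7.83 against 5.0, 5.45, 5.04 and 5.64 (-1.58 ± 0.38, adjusted p = 0.268). Genes that ARNTL drives (Dbp, Ciart, Per3) and Arntl itself were thus displaced in opposite directions in wild-type arrays 3 and 4.

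Of the 13 core loop genes, 6 were higher and 2 lower in knockout hearts at an unadjusted p under 0.05, and of the 13 output genes, 7 and 1. Over all genes, 3.27% were higher and 3.88% lower at that level. None of the 26 clock genes was called. In 21 of the 26 genes, wild-type arrays 3 and 4 lay together on one side of arrays 1 and 2, which was so for 45.3% of all genes. Without arrays 3 and 4, the log2 change was 0.34 for Dbp, 0.07 for Ciart, 0.47 for Per3, -0.25 for Nfil3 and -0.77 for Arntl. The number of genes with an unadjusted p under 0.05 went from 8 to 4 in the core loop and from 8 to 2 among the output genes (5 in the core loop without array 4 alone). The medians went from 0.21 to 0.10 and from 0.28 to 0.08. These counts come from a fit with fewer wild-type arrays and have no share of all genes beside them, so they are not like for like. Klf10 (0.46 with all arrays and 0.52 without arrays 3 and 4) and Rora (0.21 and 0.28) were the exceptions among the 16 genes. The part of collection time or any other batch in this pattern was not tested, since the labels record none.

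**Figure D4:**
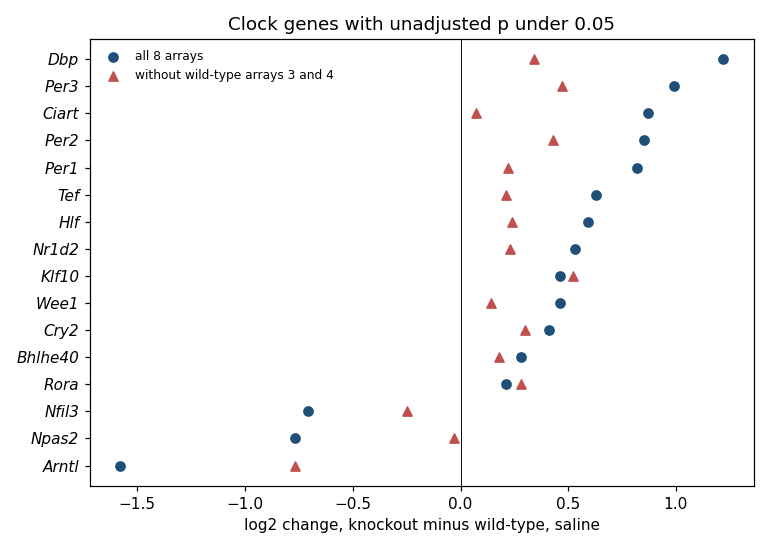
Log2 change after saline, knockout minus wild-type, of the 16 clock genes with an unadjusted p under 0.05, with all 8 arrays (circles) and without wild-type arrays 3 and 4 (triangles). For Dbp the value goes from 1.22 to 0.34 and for Arntl from -1.58 to -0.77.

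The largest log2 changes were mostly not the called ones. Of 36 genes with a log2 change of 1 or more in size, 28 were lower and 8 higher in knockout hearts, and 3 (Hp, Mtr and Cidec) were called. In 15 of the 36 (41.7%, against 14.9% of all genes), wild-type arrays 1 and 4 were both above arrays 2 and 3, among them Myh1 (-3.65), Tnnc2 (-2.86), Tnnt3 (-2.36) and Scgb1a1 (-2.13). Without arrays 1 and 4 the changes were 0.03 for Myh1, 0.00 for Tnnc2, -0.12 for Tnnt3 and -0.25 for Scgb1a1. In another 15 (41.7%), wild-type arrays 3 and 4 lay on one side of arrays 1 and 2, a share no higher than the 45.3% of all genes. The following genes of that kind were chosen after their values were seen. Gdpd3, a phospholipase of the glycerophosphodiesterase family, was at 9.79, 9.49, 5.60 and 5.70 in wild-type and 10.87, 9.16, 9.68 and 10.52 in knockout arrays (2.41 ± 0.86, adjusted p = 0.557), and its change was 0.42 without arrays 3 and 4. Zfp979, a zinc finger gene, was at 5.31, 5.44, 3.72 and 2.98 against 6.94, 6.41, 5.0 and 6.31 (1.80 ± 0.52, adjusted p = 0.416), and its change was 0.79 without these arrays. Eln, the elastin gene, was at 7.50, 8.11, 8.56 and 8.58 against 7.23, 6.72, 6.99 and 7.73 (-1.02 ± 0.24, adjusted p = 0.262), and -0.63 without them. Cyp26b1, which degrades retinoic acid, followed neither pattern. It was at 5.77, 8.27, 6.84 and 7.16 against 5.73, 4.76, 5.55 and 5.95 (-1.51 ± 0.42, adjusted p = 0.358).

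Stress-responsive transcription factors and matrix genes were lower in part, below the threshold. Of 22 immediate early genes, 5 were lower at an unadjusted p under 0.05 and 0 higher, where 3.88% and 3.27% of all genes were. The median was -0.11, and 18 of 22 changes were below 0, against 9409 of 18193 over all genes. The count of 5 depended on single arrays, counted below in either direction. It was 2 without wild-type array 3, wild-type array 4 or knockout array 2, and 3 without wild-type arrays 1 and 4 or 3 and 4. It was 7 without wild-type array 1 or 2, 6 without knockout array 1 or 3, and 4 without knockout array 4. Atf3, a stress-induced repressor, was at 5.78, 6.01, 6.66 and 6.37 in wild-type and 5.30, 4.75, 5.73 and 5.65 in knockout arrays, without overlap (-0.85 ± 0.22, adjusted p = 0.331, and -0.54 without wild-type arrays 3 and 4). Btg2, an early gene that slows cell division, was at 5.84 and 5.64 in knockout arrays 1 and 2, at 8.99 and 8.11 in arrays 3 and 4, and at 7.61 to 8.51 in wild-type arrays, so its change of -1.0 ± 0.61 lay within the knockout spread. Of 23 extracellular matrix genes, 5 were lower and 0 higher at that level, against the same shares of all genes. The count in either direction was 3 without wild-type array 2, wild-type array 3, knockout array 2 or wild-type arrays 3 and 4. It was 7 without wild-type array 1, 6 without knockout array 1 or 4, and 4 without wild-type array 4 or knockout array 3. For Col1a1, a chain of type I collagen, the value was -0.30 ± 0.10 (adjusted p = 0.500) and for Postn, periostin, it was -0.26 ± 0.07 (adjusted p = 0.378).

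At rest, the cytokine, Toll-like receptor and leukocyte marker lists held no called member. The called genes Hp and Ifi27l2a are in none of these lists. Of 29 cytokine and chemokine genes, 3 were higher and 3 lower at an unadjusted p under 0.05, where 3.27% and 3.88% of all genes were. None of the 29 was called, and the median was 0.05. Cxcl9, a T cell attractant, was at 4.03 to 4.85 in wild-type and 4.43 to 5.71 in knockout arrays (0.58 ± 0.23, adjusted p = 0.627). Il15 was at 4.76, 7.19, 5.07 and 6.96 against 6.86, 6.99, 8.06 and 6.92 (1.21 ± 0.50, adjusted p = 0.638), with wild-type arrays 1 and 3 low. Of 19 Toll-like receptor and NF-kB genes 0 were called; Ticam1, an adaptor of TLR3 and TLR4, did not overlap, at 6.44 to 6.57 against 6.11 to 6.22 (-0.31 ± 0.08, adjusted p = 0.307). Tlr4, the receptor subunit that senses LPS, was at 6.61 to 6.71 against 6.34 to 6.60 (-0.22 ± 0.09, adjusted p = 0.625). The lists of macrophage, neutrophil, T and NK cell and B cell markers had medians from -0.08 to -0.01 and held 0 called genes.

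The LPS arrays gave the same genes a comparison in hearts that share none of these 8 arrays. After LPS, limma called 0 genes between the genotypes, and 3.51% had an unadjusted p under 0.05, against 7.15% after saline. Of the 14 genes, 12 had a log2 change of the same sign after LPS (46.1% of all genes had a positive and 53.9% a negative one) and 4 also had an unadjusted p under 0.05. Leaving out each LPS array in turn gave 9 to 13 of the same sign and 3 to 6 with such a p, and 0 genes called each time. Some LPS arrays stood apart. Wild-type LPS array 4 was at 7.19 for Car3 and 5.24 for Adipoq, where arrays 1 to 3 of that group were at 3.43 to 3.88 and 3.33 to 3.45, and at 9.34 for Rcan1, a calcineurin inhibitor, against 11.35 to 12.01. Mtr was at 5.62 in wild-type and 6.66 in knockout LPS hearts (1.04, unadjusted p = 0.0105). Knockout LPS array 4 was at 7.82 for Mtr and the other knockout LPS arrays at 6.14 to 6.35, and without array 4 the change was 0.65. Ifi27l2a gave -1.18 (unadjusted p = 0.0412), with wild-type LPS array 4 at 11.66 and the others at 8.84 to 10.22, and -0.67 without that array. Slc16a9 gave -0.91 (unadjusted p = 0.0108), and Pde3b -0.45 (unadjusted p = 0.0209) and -0.29 without knockout LPS array 2. Hp, which stood at 9.84 in wild-type and 9.69 in knockout LPS hearts, changed by -0.15, and Cidec, at 3.54 and 3.46, by -0.09. Lnx1 (-0.06) and Nav3 (-0.34) had the opposite sign to their change after saline, and Nav3 was at -0.10 without wild-type LPS array 4.

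The test of the difference between the knockout effects after LPS and after saline called 0 genes (limma, 16 arrays), and 4.47% of genes had an unadjusted p under 0.05. The smallest adjusted p was that of Cidec, whose effect was 0.95 ± 0.18 higher after LPS (adjusted p = 0.757). The difference was 1.26 ± 0.37 for Hp and -1.02 ± 0.27 for Nav3 (adjusted p = 0.959 for both). For Mtr it was -0.43 ± 0.40 and for Slc16a9 -0.04 ± 0.33. Of the genes that were not called, Slc38a1 had a larger genotype difference after LPS than after saline in these values: the wild-type LPS arrays were at 5.95, 5.66, 5.42 and 6.30 and the knockout LPS arrays at 6.88, 6.98, 6.95 and 7.29. Its change was 1.19 ± 0.20 there (adjusted p = 0.966) and 0.55 ± 0.09 after saline, without overlap in either (2.26% of all genes did not overlap after LPS). Adipocyte markers were low in LPS hearts of both genotypes, with array means of 3.79 to 4.73 in wild-type and 3.55 to 4.03 in knockout hearts, and their median genotype change was -0.13. Over all genes, the 2 knockout effects correlated at 0.04 across genes, which are not independent replicates.

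**Figure D5:**
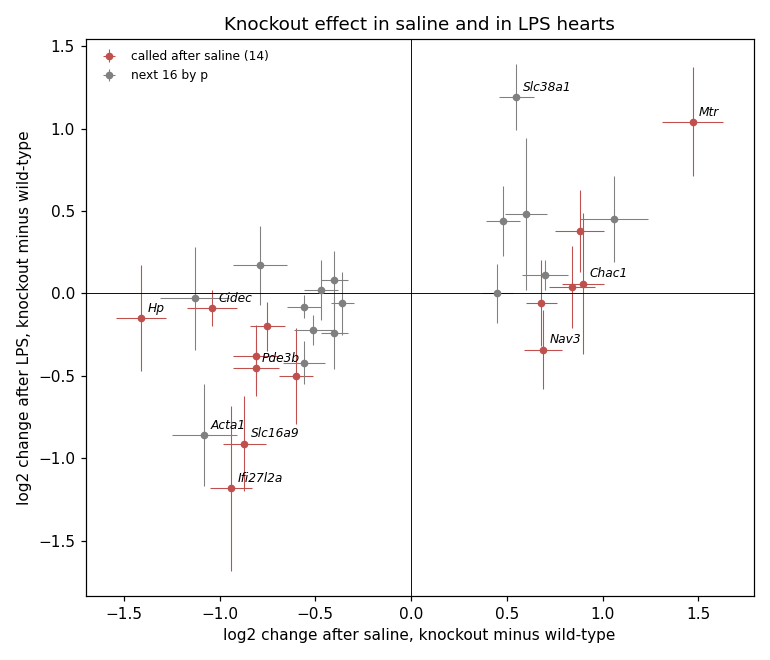
Log2 change between knockout and wild-type after saline (horizontal) and after LPS (vertical) for the 30 genes with the smallest p after saline, with limma standard errors (4 arrays a group). Mtr lies high in both (1.47 and 1.04), Ifi27l2a and Slc16a9 low in both, and Hp and Cidec close to 0 after LPS.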

How the data were processed

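RNA of 16 heart samples was measured on Affymetrix mouse arrays, 1 array per sample. The deposited values are log2 probe set levels that the authors made with RMA, per the submitters' processing notes; its version is not stated in the sources used here. RMA shares 1 normalization over all arrays and compresses differences near background, so folds of dim genes are understated. The number of arrays limits the precision, since arrays give no read depth. Of 45101 probe sets, 64 controls, 932 with several gene symbols and 9160 without one here were left out. Each of 18193 genes was represented by its brightest probe set, by the mean of all 16 arrays.

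The 8 saline arrays were fitted alone with limma 3.58.1 in R 4.3.3 (1 mean per group, intensity trend, 6 residual degrees of freedom, two-sided, Benjamini-Hochberg over all genes, called at adjusted p under 0.05). The LPS arrays were fitted the same way, and the difference of both effects on 16 arrays. The script was tested on simulated data. Named genes were the called genes, then those of smallest p up to 30, up to 4 members per list with the smallest p, Adora3, and members of the muscle, fat, lipid, clock and flanking lists; Gdpd3, Zfp979, Eln, Cyp26b1, Scgb1a1 and Bpifa1 were chosen after their values were seen, and so were the settings without wild-type arrays 3 and 4 and without each LPS array. The comparison, its named members, the 27 process lists and the 19 marker lists were chosen with earlier results of these data known. List members were matched by symbol or RefSeq synonym. Promoters are RefSeq sequences of GRCm38.p6. The alternatives tried were other fits, probe set rules, filters, scalings, arrays left out, the replicate number as a block and a skeletal muscle covariate.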

Additional observations from a re-analysis of the deposited data

Results flagged for a closer look

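In 7 of 196 groups of 4 arrays, 1 array lay far from the other 3 relative to the spread of the group. Chance alone sets about 1 in 20 such groups apart. Cidec was at 3.40 in knockout array 4, against 3.67 to 3.71 in the other knockout arrays. Acta1 was at 12.26 in wild-type array 3, against 13.00 to 13.08. Tslp was at 3.61 in wild-type array 4 (3.91 to 3.96), and Rgs2 at 8.57 in wild-type array 2 (8.91 to 8.98). Slc26a10 was at 3.78 in knockout array 1 (3.39 to 3.43), Rapgef3 at 7.32 in wild-type array 3 (6.62 to 6.69) and Bpifa1 at 3.23 in knockout array 2 (2.92 to 2.97).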

How the results depend on the processing

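Of the 14 genes, none changed direction after saline under any of the settings run. The count of 14 genes was 1 with all 16 arrays in the fit (Cidec), 25 with array weights, 6 with the mean of all probe sets, 8 with genes above the median level alone and 2 without wild-type arrays 1 and 4 (Hp and Cidec). It was 1 with the fast skeletal muscle mean as a covariate, and 0 with that covariate and the replicate block together. It was 21 without wild-type arrays 3 and 4, of which 7 are among the 14. Leaving out each array in turn gave 7 to 19 genes, the lowest without knockout array 2. Other settings gave 10 to 16. With the replicate number as a block, 3 genes were called (Hp, Mtr and Slc16a9). Deviations of arrays with the same number correlated at -0.25 to 0.10, against -0.26 to 0.33 for different numbers. Of 4 wild-type arrays, 1 correlated best with its own number. The labels name no pairing, and whether arrays with the same number share a day or batch was not tested. The difference between the knockout effects gave 0 genes in every setting run, the replicate block included. Single genes that were not called changed sign: Npas2 was 0.01 with the probe set of highest mean over the 8 arrays, Aifm2 0.04 with the mean of all probe sets, Ucp1 0.04 with the covariate and the replicate block, and Myh1 0.03, Tnnc2 0.00 and Mylpf 0.11 without wild-type arrays 1 and 4. After LPS, leaving out each of the 8 LPS arrays in turn moved Hp from -0.36 to 0.08, Chac1 from -0.31 to 0.45, Lnx1 from -0.17 to 0.22 and Pgap2 from -0.13 to 0.25, and changed the sign of no other gene of the 14. The cause was not tested, beyond the fewer arrays or genes that some settings hold. Signal over background limits Mpzl2, Zgrf1 and Ptger3, with all 8 saline arrays under the median of all probe sets (4.64). It also limits Cidec, with its knockout arrays and wild-type arrays 1 and 2 there.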
